A study of Mus musculus with 15 samples.

Results

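Brown adipose tissue libraries of vehicle-treated mice were split by the amount of Acta1 mRNA, the skeletal muscle actin gene, that they held. The libraries were selected on that single value, given in FPKM, a fragment count scaled for transcript length and library size: 3 of the 8 vehicle libraries (vehicle 2, 6 and 8) were above 1000 FPKM, and the other 5 (vehicle 1, 3, 4, 5 and 7) were below it. These 8 are part of a series of 15 libraries of mouse brown adipose tissue, the heat-producing fat, of which 7 came from mice given bisphenol S (BPS), a bisphenol used in plastics and paper coatings. The labels give each library's tissue and whether the mouse received vehicle or BPS; the strain, age, sex, dose, duration and genotype are not given in the sources used here, and nothing in the labels says how the fat was dissected. Because Acta1 set the groups in these same libraries, every difference between them is given as a description and carries no test. The only tests below are in the 7 BPS libraries, which the rule did not use.

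Brown fat burns fatty acids to make heat, and its interscapular depot lies against the muscles of the back and neck. Skeletal muscle fibres contract when calcium released from the sarcoplasmic reticulum lets myosin of the thick filament pull on actin of the thin filament. The proteins of this machinery exist in fast and slow forms, which mark fast and slow fibres, and many of their genes are used by muscle and little by fat cells. Brown fat cells and muscle fibres both derive from embryonic cells that have expressed Myf5.

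The promoters of 3 of the muscle genes that the results turn on are shown because these genes were high and low in the same libraries: Acta1, which set the groups, Ckm, the muscle creatine kinase, and Mylpf, the regulatory light chain of fast myosin. The sequences are RefSeq's, on build GRCm38.p6, from 250 bases before to 50 bases after the annotated start, at chr8:123894726-123895025 on the minus strand for Acta1, chr7:19410844-19411143 on the plus strand for Ckm and chr7:127211358-127211657 on the plus strand for Mylpf. Capitals mark matches, on either strand, to the E-box CANNTG, the sequence class that the MyoD family binds, and to the CArG box of serum response factor.
Acta1: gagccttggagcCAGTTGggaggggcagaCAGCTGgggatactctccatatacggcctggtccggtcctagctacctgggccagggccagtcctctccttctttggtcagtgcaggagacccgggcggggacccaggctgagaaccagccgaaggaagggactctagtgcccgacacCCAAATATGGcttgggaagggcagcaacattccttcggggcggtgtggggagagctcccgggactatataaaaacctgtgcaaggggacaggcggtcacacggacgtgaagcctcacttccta
Ckm: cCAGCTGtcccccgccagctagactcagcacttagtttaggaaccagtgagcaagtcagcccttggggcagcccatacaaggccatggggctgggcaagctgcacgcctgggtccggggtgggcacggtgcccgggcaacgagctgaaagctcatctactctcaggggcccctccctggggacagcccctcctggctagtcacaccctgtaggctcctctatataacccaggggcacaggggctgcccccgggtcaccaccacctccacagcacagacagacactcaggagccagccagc
Mylpf: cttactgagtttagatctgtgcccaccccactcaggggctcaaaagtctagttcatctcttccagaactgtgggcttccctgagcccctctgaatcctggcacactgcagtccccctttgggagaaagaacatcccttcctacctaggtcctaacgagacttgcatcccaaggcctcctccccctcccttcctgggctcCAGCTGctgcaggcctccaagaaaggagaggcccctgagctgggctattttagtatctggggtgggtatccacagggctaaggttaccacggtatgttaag
The Acta1 window held 2 E-boxes and 1 CArG box, and the Ckm and Mylpf windows held 1 E-box each. No matches overlapped in these 3 windows. An E-box was found in 82.8% of 116 promoters of 90 muscle genes and in 72.3% of all 32851 promoters, a CArG box in 6.03% and 1.63%, and a match to the MEF2 site in 10.3% and 3.19%. Promoters were matched for 90 of the 126 muscle genes in the table, and these are matches of letters, not measured sites.

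Skeletal muscle transcripts were present in every vehicle library, in very different amounts. Acta1 stood at 8024, 8219.6 and 2598 FPKM in vehicle 2, 6 and 8, and at 698, 337, 608, 11.9 and 30.5 FPKM in vehicle 1, 3, 4, 5 and 7. Vehicle 8, the library just inside the limit, held 3.72 times the Acta1 of vehicle 1, the library just outside it. The groups were wide inside as well: the highest and lowest libraries differed 3.16-fold above the limit and 58.5-fold below it. The lower group is therefore not without muscle transcripts, and vehicle 1, 3 and 4 lie nearer in Acta1 to vehicle 8 than to vehicle 5 or 7 on a log scale.

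Ckm, which regenerates ATP from phosphocreatine in contracting fibres, followed Acta1. It was at 6109, 5613 and 1831 FPKM in the 3 libraries above the limit and at 754, 311, 566, 6.20 and 24.0 FPKM in vehicle 1, 3, 4, 5 and 7. The groups did not overlap, and the ratio of Ckm to Acta1 lay between 0.683 and 0.761 in the higher group and between 0.52 and 1.08 in the lower one. Summed over 126 genes of 7 skeletal muscle lists, muscle transcripts made up 14.0%, 13.6% and 5.26% of the FPKM of vehicle 2, 6 and 8 and 0.908% to 2.28% of that of the other 5. Without 13 list genes that other cells of the tissue may also express, the shares were 12.2%, 11.8% and 4.18% against 0.0624% to 1.46%. Acta1, which set the groups, is among the 126. With Acta1 alone left out, the shares were 13.1%, 12.7% and 4.95% against 0.907% to 2.20%. In the BPS libraries the share over all 126 genes ran from 0.474% to 3.21%, and 1 of 7 (BPS 1) was above 1000 FPKM of Acta1.

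**Figure D1:**
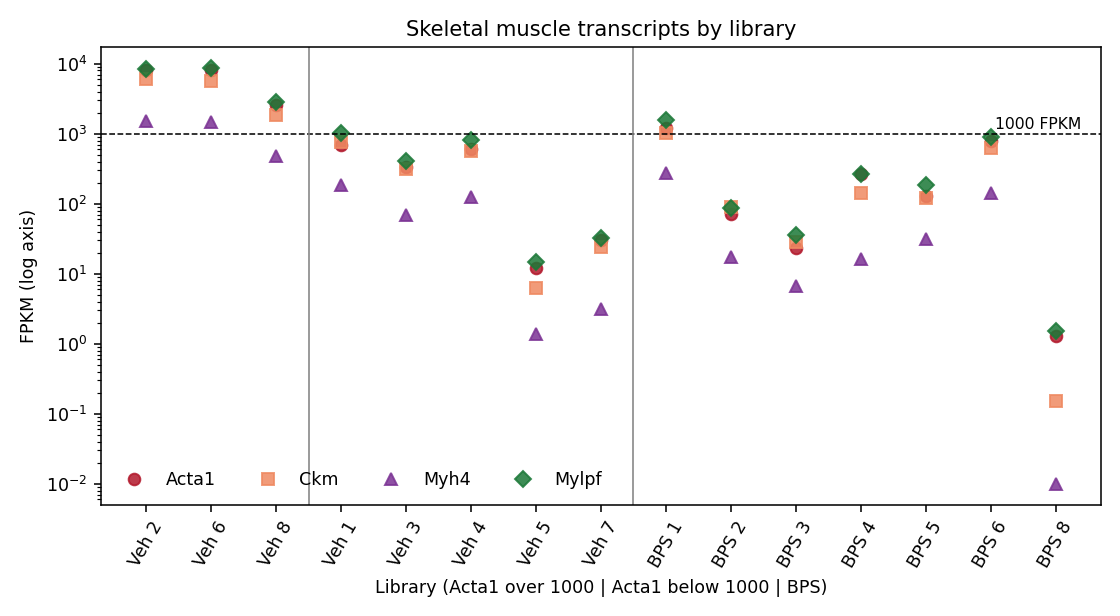
FPKM on a log axis of Acta1, Ckm, Myh4 and Mylpf in each library (points), with the vehicle libraries above 1000 FPKM of Acta1 on the left, the other vehicle libraries in the middle and the BPS libraries on the right, and a dashed line at 1000 FPKM. All 4 genes are high or low in much the same libraries, and vehicle 2 and 6 lie highest for each of them.

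The brown fat label held in all 8 libraries: Ucp1, the uncoupling protein of brown fat, was between 358 and 2321 FPKM. The summed FPKM of a library was between 833780 and 920860 in the vehicle group, and 11527 to 12306 genes per library reached 1 FPKM. The number of reads behind these values is not known from the table, so no counting error is given. The labels do not say whether each library is a separate mouse. FPKM is a share of a library, so that a group of transcripts that takes 14.0% of a library lowers the values of all other genes in it; counts of separate genes that changed when the values were rescaled to the sum without the muscle lists are therefore given both ways below. In bulk tissue, fewer cells of a type and less RNA per cell cannot be told apart.

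Of the 12413 genes that reached 1 FPKM in 3 or more vehicle libraries, 1225 were higher in all 3 libraries above the limit than in any of the other 5 (9.87%), and 1018 were lower in all 3 (8.2%). After rescaling, these counts were 2204 and 191; all 1225 higher genes stayed separate, and 191 of the 1018 lower ones did. The median log2(FPKM + 1) difference over all tested genes was -0.07 as deposited and 0.09 rescaled, a shift of 0.16 in that median. Because Acta1 set the groups, limma's p-values test nothing in these libraries and served only to count. At a Benjamini-Hochberg adjusted p under 0.05, its moderated statistic put 747 genes higher (6.02%) and 248 lower (2%), and 1153 and 47 after rescaling. Without vehicle 2 or without vehicle 6, which leaves 2 libraries above the limit, no gene was counted by limma in either direction; at an unadjusted p under 0.05 there were 1048 higher and 813 lower genes without vehicle 2, and 973 and 689 without vehicle 6.

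Large differences were on the higher side. Of the genes that did not overlap, 286 were higher by at least 2 on the log2 scale and 5 were lower by at least 1. Of the 50 largest differences 43 were genes of the muscle lists. Of the 121 tested muscle genes, 114 were higher in all 3 libraries without overlap, against 9.87% of all tested genes, 7 overlapped and none was lower in all 3. Acta1 is among the 43, the 121 and the 114, and its separation was fixed by the rule that set the groups. Their median difference was 3.61, against -0.07 for all tested genes. The limma count, which is no test, put 71 of them higher, against 6.02% of all tested genes, and none lower. The largest differences, such as those of Acta1 and Ckm, were not among those 71; their differences of 5.29 and 5.06 had SE of 1.49 and 1.67, since the libraries inside each group were far apart. Among the 121 were 8 genes, of 96 in all, that passed the filter on low values only through the libraries above the limit, being under 1 FPKM in the other 5.

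**Figure D2:**
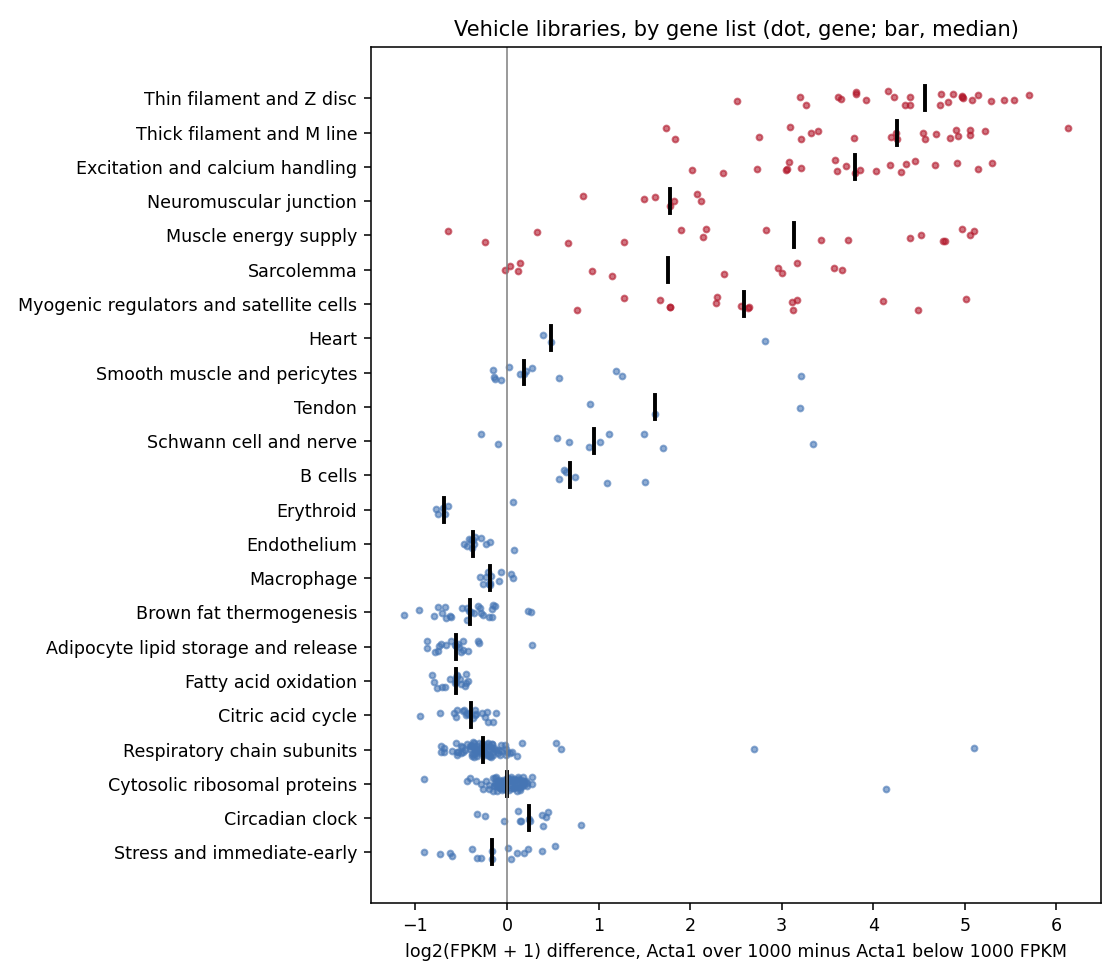
Difference in mean log2(FPKM + 1) between the 3 vehicle libraries above 1000 FPKM of Acta1 and the 5 below it, for the tested genes of each list (dots; vertical bars, list medians; red, skeletal muscle lists). The muscle lists reach up to 6.13. The tendon list lies right of 0 and the nerve list mostly so, and the fat and mitochondrial lists lie mostly left of it.

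The contractile apparatus gave the widest differences. All 26 tested genes of the thin filament and Z disc were higher without overlap, with a median difference of 4.57. So were all 21 of the thick filament and M line, with a median of 4.26, against 9.87% of all tested genes. Tnnt3, the fast troponin T that anchors the calcium switch to the thin filament, was at 15368, 13881 and 4825 FPKM in vehicle 2, 6 and 8 and at 1676, 792, 1475, 16.3 and 55.7 FPKM in vehicle 1, 3, 4, 5 and 7. Its lowest value above the limit was well over its highest value below it, and its log2(FPKM + 1) difference was 5.14 ± 1.68 (SE, 3 against 5 libraries). Mylpf, whose promoter is printed above, was at 8446, 8637 and 2878 FPKM against 1029, 409.7, 812, 14.5 and 32.6 FPKM. It ordered the 8 libraries as Acta1 did.

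Genes of fast and of slow fibres were both higher. The 13 fast genes had a median difference of 4.97 and the 11 slow genes a median of 5.01. None overlapped, against 9.87% of all tested genes higher without overlap. Myh4, the heavy chain of the fastest mouse myosin (type IIB), was at 1538, 1454 and 488 FPKM in vehicle 2, 6 and 8, and at 185, 68.7, 126, 1.37 and 3.16 FPKM in vehicle 1, 3, 4, 5 and 7. Pvalb, the calcium buffer of fast fibres, was at 7392, 6849.6 and 2636 FPKM against 7.93 to 913 FPKM. On the slow side, Myl2, the light chain of slow and cardiac myosin, had the largest difference of any tested gene, 6.13 ± 1.95. It was at 5061, 3448 and 991 FPKM against 344, 82.9, 291, 1.28 and 2.61 FPKM. Differences of 5.70 ± 1.81, 5.53 ± 1.68 and 5.43 ± 1.58 were found for the slow troponin genes Tnnt1, Tnnc1 and Tnni1.

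Fast myosin held most of the adult heavy chain signal in every vehicle library. Of the summed FPKM of the adult heavy chains Myh1, Myh2, Myh4 and Myh7, Myh4 held 70.8%, 70.0% and 64.8% in vehicle 2, 6 and 8 and 64.3% to 82.1% in the other 5, so that the ranges overlapped. The slow chain Myh7 held 12.1%, 8.49% and 8.53% in the higher group and 0 to 7.62% in the lower group, so that its share did not overlap. The sum behind these shares was 2173, 2077 and 753 FPKM above the limit. It was as low as 1.77 and 3.85 FPKM in vehicle 5 and 7, where a share rests on little signal. The summed slow genes over the summed fast genes gave 0.1286 to 0.2065 in the higher group and 0.1266 to 0.495 in the lower group. These ratios overlapped, and the slow list includes Atp2a2, which many cells use. Myh3, the embryonic heavy chain, was low, at 4.47, 3.30 and 1.91 FPKM against at most 1.24 FPKM. Over 94 muscle genes of at least 10 FPKM in each of the 3 libraries above the limit, the ratio to Acta1 differed between those libraries by a median of 1.23-fold, and by less than 1.5-fold for 74 of them. The widest ratio, 6.61-fold, was that of Gpd1, a glycerol phosphate dehydrogenase that fat also expresses.

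**Figure D3:**
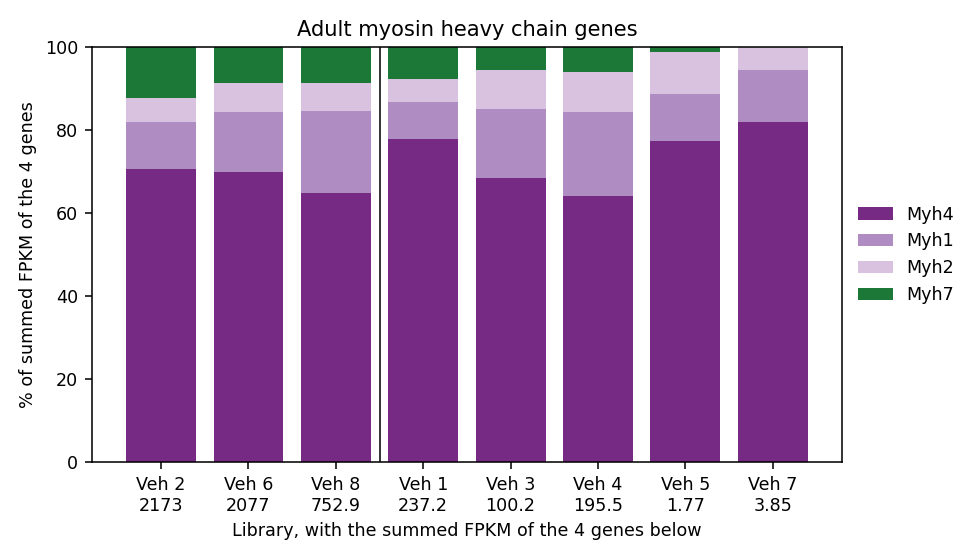
Share of each adult myosin heavy chain gene in their summed FPKM (stacked bars, 0 to 100%), per vehicle library, with that sum in FPKM under each name. Myh4 holds 64.3% to 82.1% in all 8 libraries, while the sum ranges from 1.77 to 2173 FPKM.

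Genes that couple excitation to calcium release were higher together, with a median difference of 3.80. All 21 tested were free of overlap, against 9.87% of all tested genes higher without overlap. Atp2a1, the calcium pump of the fast sarcoplasmic reticulum, was at 1832, 1795 and 581 FPKM in vehicle 2, 6 and 8 and at 197, 71.8, 133, 1.92 and 4.66 FPKM in vehicle 1, 3, 4, 5 and 7. Sln, sarcolipin, which inhibits that pump and makes heat in muscle, was at 159, 143 and 58.0 FPKM against 0 to 17.1 FPKM. Srl, sarcalumenin, a calcium-binding protein of the reticulum, had a difference of 3.08 ± 0.41. The slow and cardiac pump Atp2a2, which many cells use, differed by less, 1.84 ± 0.29, and was at 42.1 to 57.7 FPKM in the lower group.

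The neuromuscular junction is where a motor nerve meets a fibre. Of its 10 genes 7 were tested and 6 were higher without overlap (median 1.78), against 9.87% of all tested genes. Among the 7, 3 were under 1 FPKM in every library of the lower group and so could be tested only because they were higher. Rapsn, which clusters acetylcholine receptors, was at 10.2, 6.75 and 3.43 FPKM against 0.27 to 1.07 FPKM. Chrne, the adult receptor subunit, was at 3.39, 2.62 and 1.56 FPKM against at most 0.28 FPKM. Musk, the receptor kinase that organises the junction, differed by 1.49 ± 0.22. Chrnb1 overlapped, and Chrnd, Chrng and Lrp4 were too low to be tested.

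Of 18 muscle energy genes, 15 were higher without overlap (median 3.13), against 9.87% of all tested genes. Cox6a2, the muscle form of a cytochrome oxidase subunit, differed by 5.10 ± 1.65, and Pfkm, muscle phosphofructokinase of glycolysis, was at 548, 603 and 226 FPKM against 36.1 to 89.9 FPKM. Gpd1 and Fabp3, a fatty acid binding protein that brown fat also uses, had differences of -0.64 and -0.24 and overlapped. Of 12 sarcolemma genes, 9 were higher without overlap, against 9.87% of all tested genes, and 1 passed the filter only through the higher group. The median of the 12 was 1.76, and 0.98 without vehicle 2 or 1.03 without vehicle 6. Among the 9 was Cavin4, a muscle caveolar protein, at 17.7 to 44.8 FPKM against 1.79 to 5.45 FPKM. The 3 that overlapped, Dag1, Dysf and Sgcd, differed by at most 0.14.

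Regulators of muscle identity were low but separate. All 16 tested of 18 were higher without overlap, against 9.87% of all tested genes, with a median of 2.59. However, 4 of them passed the filter on low values only through the libraries above the limit. Myod1, a master regulator of muscle differentiation, was at 7.41, 6.14 and 2.31 FPKM in vehicle 2, 6 and 8 and at 0.45, 0.06, 0.59, 0 and 0 FPKM in vehicle 1, 3, 4, 5 and 7. Myog, which drives fusion and terminal differentiation, was at 21.99, 6.50 and 4.23 FPKM against at most 1.62 FPKM. Myf5, a regulator of early myoblasts, reached 2.57 FPKM, and Pax7, which marks satellite cells, did not pass the filter and was at 0.21 to 0.59 FPKM in the higher group. Ankrd1, a stress-responsive titin partner, was at 11.7, 5.23 and 4.54 FPKM against 0 to 1.26 FPKM.

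Tissues close to muscle were read from their own lists. Of 12 heart genes, 8 are in the table and 3 could be tested; Tnnt2, cardiac troponin T, which developing skeletal muscle also uses, was higher without overlap at 9.73, 9.23 and 4.47 FPKM against at most 0.70 FPKM, and so passed the filter through those 3 libraries. Myh6, the cardiac myosin, was at 1.04 FPKM or less in all 8 libraries. The median of 13 smooth muscle and pericyte genes was 0.19. Of these genes 2 were higher without overlap, against 9.87% of all tested genes. These were Des, desmin, which skeletal muscle also makes, at 3.21 ± 0.58, and Synpo2; Acta2, smooth muscle actin, was at 47.7, 46.4 and 47.1 FPKM against 13.4 to 109.7 FPKM and overlapped. Of the tendon genes 3 of 9 could be tested and 2 were higher without overlap, against 9.87% of all tested genes. Thbs4, thrombospondin 4 of the tendon matrix, was at 11.8, 20.5 and 9.60 FPKM against 0.03 to 1.54 FPKM, and Scx, the tendon transcription factor, which was under 1 FPKM in every library of the lower group, differed by 1.61 ± 0.33.

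Most myelin and Schwann cell genes were higher too. Of 10 tested, 1 of them only through the higher group, 8 had positive and 2 negative differences, against 4975 and 7438 of all 12413. Without overlap 7 were higher, against 9.87% of all tested genes, and the median was 0.95 as deposited and 1.09 rescaled. Mbp, myelin basic protein, was at 53.7, 56.9 and 41.0 FPKM in vehicle 2, 6 and 8 and at 21.3, 19.8, 19.6, 12.8 and 13.8 FPKM in vehicle 1, 3, 4, 5 and 7. Prx, periaxin of the Schwann cell, was at 5.99, 5.24 and 4.26 FPKM against 0.40 to 1.69 FPKM. Their differences were 1.49 ± 0.19 and 1.71 ± 0.22. The highest and lowest of the 3 libraries differed 1.39-fold in Mbp and 3.16-fold in Acta1. S100b, Gfra3 and Cdh19 overlapped, and the neurofilament genes Nefl and Nefm were too low to be tested.

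Genes of the fat cell lay mostly lower. Of 19 adipocyte genes of lipid storage and release, 18 had negative differences, against 7438 of all 12413 tested genes. Without overlap 6 were lower, against 8.2% of all tested genes. The median was -0.56, and -0.38 after rescaling. Pparg, the master regulator of fat cell identity, was at 84.8, 83.7 and 125 FPKM in vehicle 2, 6 and 8 and at 172, 168, 180.4, 151 and 148 FPKM in vehicle 1, 3, 4, 5 and 7. Pnpla2, the lipase that starts triglyceride breakdown, was at 504, 502 and 717 FPKM against 823 to 1107 FPKM. Their differences were -0.76 ± 0.15 and -0.78 ± 0.16, and both stayed separate after rescaling. Cd36, Dgat2, Cidec and Fabp4, which take up, esterify and carry fatty acids or coat droplets, overlapped once rescaled. Slc2a4, the insulin-responsive glucose transporter that muscle shares, was the positive gene, with a difference of 0.27, and did not overlap after rescaling. Adipoq, adiponectin, was at 681, 906 and 1339.9 FPKM against 1274 to 2196 FPKM and overlapped, as did Lep, leptin.

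The thermogenic genes were spread widely inside the lower group. Ucp1 was at 358, 480.4 and 851 FPKM in vehicle 2, 6 and 8 and at 1081, 891, 479, 1883 and 2321 FPKM in vehicle 1, 3, 4, 5 and 7. The groups overlapped because vehicle 4 was lower than vehicle 6 and 8, and the difference was -1.13 ± 0.51. Cidea, a droplet protein of brown fat, was at 1306, 1087 and 2106 FPKM against 1724 to 4130.3 FPKM and overlapped as well. Of 26 tested thermogenic genes 24 had negative differences, against 7438 of all 12413 tested genes. The median was -0.40 as deposited and -0.24 rescaled, and 3 were lower without overlap, a share near the 8.2% of all tested genes. Of these, Ppara, a receptor that turns on fatty acid burning, stayed separate after rescaling, at 30.7, 24.98 and 37.4 FPKM against 41.5 to 59.0 FPKM. Kcnk3, a potassium channel, and Lhx8, a brown fat transcription factor, overlapped once rescaled. The regulators Ppargc1a, Prdm16 and Adrb3 had differences of -0.16, -0.26 and -0.19 and overlapped.

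**Figure D4:**
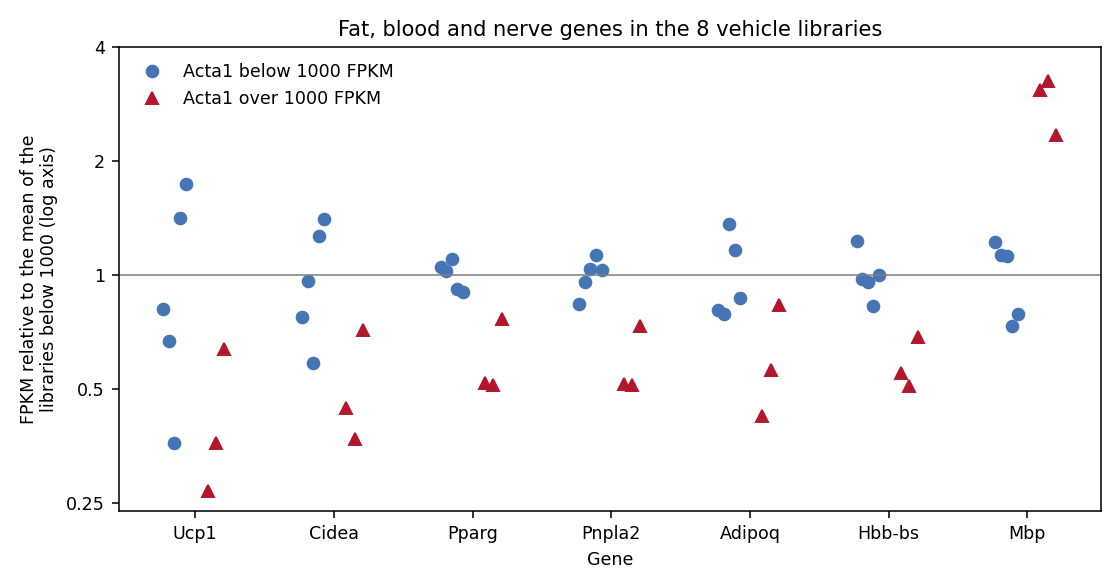
FPKM of 7 genes in each vehicle library relative to the mean of the 5 libraries below 1000 FPKM of Acta1 (log axis; blue circles, those 5; red triangles, vehicle 2, 6 and 8 in that order). Pparg, Pnpla2 and Hbb-bs lie lower without overlap, Ucp1, Cidea and Adipoq overlap, and Mbp lies higher.

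Mitochondrial genes were mostly lower on average, and few were separate between the groups. Of all 12413 tested genes, 7438 were lower on average. All 17 fatty acid oxidation genes were lower on average (median -0.55, rescaled -0.37) and 4 did not overlap, against 8.2% of all tested genes, of which Eci1 and Acad11 stayed separate after rescaling. Eci1, an isomerase for unsaturated fatty acids, was at 321, 275 and 394 FPKM against 449 to 721 FPKM. All 20 citric acid cycle genes were lower on average, with 2 free of overlap, a share near the 8.2% of all tested genes, and none after rescaling. The 81 respiratory chain subunits had a median of -0.27, which was -0.08 rescaled, against 0.09 for all tested genes. Without overlap 7 were lower, a share near the 8.2% of all tested genes. Another 4 were higher, a smaller share than the 9.87% of all tested genes. After rescaling 1 was lower and 4 higher, against 191 and 2204 of all 12413. Atp5b, the catalytic subunit of ATP synthase, was lower at 1923, 1601 and 2174 FPKM against 2596 to 4049 FPKM and was the 1 lower gene that stayed separate. In contrast, Atp5g1, which encodes the membrane ring subunit of the same enzyme, was at 496, 472 and 182 FPKM against 99.5, 54.9, 96.0, 32.8 and 24.0 FPKM. Its relative Atp5g3, which encodes the same mature subunit, was higher by 0.59 ± 0.14. The other higher genes were Cox6a2 and Atp5j.

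Blood transcripts were lower in the 3 libraries. Of 6 tested red cell genes, 5 were lower without overlap, against 8.2% of all tested genes (list median -0.69). After rescaling 4 were, against 191 of all 12413 tested genes (list median -0.50). Hbb-bs, an adult beta globin, was at 3211, 2957 and 4003 FPKM in vehicle 2, 6 and 8 and at 7185, 5697, 5574, 4832 and 5824 FPKM in vehicle 1, 3, 4, 5 and 7. Alas2, the haem enzyme of red cells, was at 9.21, 9.95 and 13.8 FPKM against 15.6 to 23.7 FPKM. Reads of near-identical globin copies can be split between them in counting, so single globin genes are uncertain. The neutrophil gene S100a8 was at 25.1, 18.6 and 23.8 FPKM against 29.9 to 44.9 FPKM. It was the 1 of 4 tested neutrophil genes that did not overlap, against 8.2% of all tested genes lower without overlap. None of the 12 endothelial, 12 macrophage, 6 B cell or 5 T and NK cell genes tested was free of overlap. Of all tested genes, 9.87% were higher and 8.2% lower without overlap. The medians of these lists were -0.37, -0.18, 0.69 and 0.15, and -0.19, -0.012, 0.82 and 0.27 after rescaling. Cd79a, a B cell receptor partner, ran from 3.57 FPKM in vehicle 2 to 18.6 FPKM in vehicle 8 inside the higher group.

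The remaining lists had small differences. Of 12 progenitor and fibroblast genes 3 were higher and 1 lower without overlap, against 9.87% and 8.2% of all tested genes. After rescaling the counts were 3 and 0, against 2204 and 191 of all 12413. Of the 12, 1 passed the filter only through the higher group. Pi16, a marker of universal fibroblasts, had a difference of 0.74. The 16 stress and immediate-early genes all overlapped, as did 10170 of all 12413 tested genes. Their median turned from -0.16 to 0.02 on rescaling. None of the 9 white adipocyte or 14 lipogenesis genes tested was free of overlap, against 9.87% higher and 8.2% lower of all tested genes. Of the 14, 12 had negative differences (median -0.32), against 7438 of all 12413 tested genes. After rescaling 9 of the 14 were negative (median -0.14). Of 82 cytosolic ribosomal protein genes 8 were lower without overlap, a share near the 8.2% of all tested genes. Higher without overlap was 1, against 9.87% of all tested genes. After rescaling 1 was lower and 3 higher, against 191 and 2204 of all 12413. The median was 0.00 as deposited and 0.19 rescaled. The higher gene was Rpl3l, the striated muscle form of Rpl3, at 214, 207 and 74.1 FPKM against 0.60 to 27.0 FPKM. Of 13 clock genes 10 had positive differences, against 4975 of all 12413 tested genes, and the median of the list was 0.24. Ciart, a repressor of the core clock, was at 16.1, 14.0 and 11.1 FPKM against 6.05 to 9.34 FPKM. With Tef, 2 clock genes were higher without overlap, and 1, Clock, was lower, against 9.87% and 8.2% of all tested genes. After rescaling 3 were higher and 0 lower, against 2204 and 191 of all 12413.

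Among the named genes outside these lists, the largest lower differences were small beside the muscle ones. The lowest difference of any tested gene was -1.33. By the naming rule, Zbed5 and Flywch2 ranked ahead of Sytl1 among the lower genes without overlap. Sytl1, which links vesicles to Rab27, differed by -1.03 ± 0.15, at 2.71, 2.16 and 3.84 FPKM against 5.80 to 7.49 FPKM. Blvrb, a biliverdin reductase of haem breakdown, was at 61.6, 51.1 and 78.8 FPKM against 119, 120.5, 105, 123 and 121 FPKM in vehicle 1, 3, 4, 5 and 7. Both stayed separate after rescaling, as did Sirt3, a mitochondrial deacetylase, at -0.85 ± 0.21. Retsat, a retinol saturase of fat, Apoe, the lipoprotein carrier, and Cyp2b10, a cytochrome P450, had differences of -0.93, -0.87 and -0.84 and overlapped once rescaled.

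Whether the same genes followed Acta1 elsewhere was tested in the 7 BPS libraries, where Acta1 ran from 1.3 to 1207 FPKM. A slope of log2(FPKM + 1) on log2(Acta1 + 1) was fitted to each of 12235 genes with limma, with p-values adjusted over all of them. The slope was positive at an adjusted p under 0.05 for 26 genes (0.213%) and negative for none (0%); at an unadjusted p under 0.05 there were 224 positive and 179 negative genes. Of the 26, 25 were in the muscle lists, and the other was Apobec2, a muscle-enriched member of the cytidine deaminase family. The highest ranked was Mylpf, with a slope of 1.00 ± 0.03 (limma adjusted p 3.92e-05), followed by Atp2a1 (0.90 ± 0.04, 0.000523), Cox6a2 (0.82 ± 0.04, 0.000716) and Ckm (1.03 ± 0.06, 0.00153). Of 97 muscle genes tested there, 95 had positive slopes, against 4637 of all 12235. Their median slope was 0.41, against -0.01 for all tested genes.

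No gene of the fat, mitochondrial, nerve or blood lists passed in the BPS libraries, apart from Cox6a2, which is also a muscle gene. Mbp had a slope of 0.09 ± 0.05, Hbb-bs -0.10 ± 0.05, Pparg 0.00 ± 0.04 and Ucp1 -0.01 ± 0.19 (limma adjusted p of 1 for these 4). Of the 13 fast fibre genes 9 passed and of the 11 slow fibre genes 2, against 0.213% of all tested genes. Among the slow ones was Myl2, with a slope of 1.09 ± 0.12 (limma adjusted p 0.0163). Myl2 missed the threshold without BPS 1, without BPS 6 and without the 2 farthest libraries. It also missed in BPS 1, 2 and 3 alone and with a pseudocount of 5. The slow gene Tnnt1 was at 0.89 ± 0.15 (limma adjusted p 0.146). A p that misses the threshold with 7 libraries does not show that a gene did not follow Acta1.

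BPS 4, 5, 6 and 8 stand apart from the others: their Y-linked transcripts were at 0.437%, 53.5%, 74.5% and 26.4% of the vehicle mean, against 92.0% to 102.2% in BPS 1, 2 and 3 and 82.9% to 114.7% in the vehicle libraries. BPS 4 was also low in Ucp1, at 82.3 FPKM. With a term for these 4 libraries, 24 of the 26 genes passed again. In BPS 1, 2 and 3 alone, 229 genes were positive and 62 negative, 24 of the 26 among the positive, with a single residual degree of freedom. Without BPS 8 and BPS 1, the libraries farthest from the median of Acta1, only Mylpf, Myh1 and Apobec2 passed, with 5 libraries left; the slopes of all 26 were still positive. The 2 libraries left out had 1.3 and 1207 FPKM of Acta1. Leaving out each BPS library in turn gave 12 to 42 positive genes, the lowest count without BPS 6 and the highest without BPS 8.

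**Figure D5:**
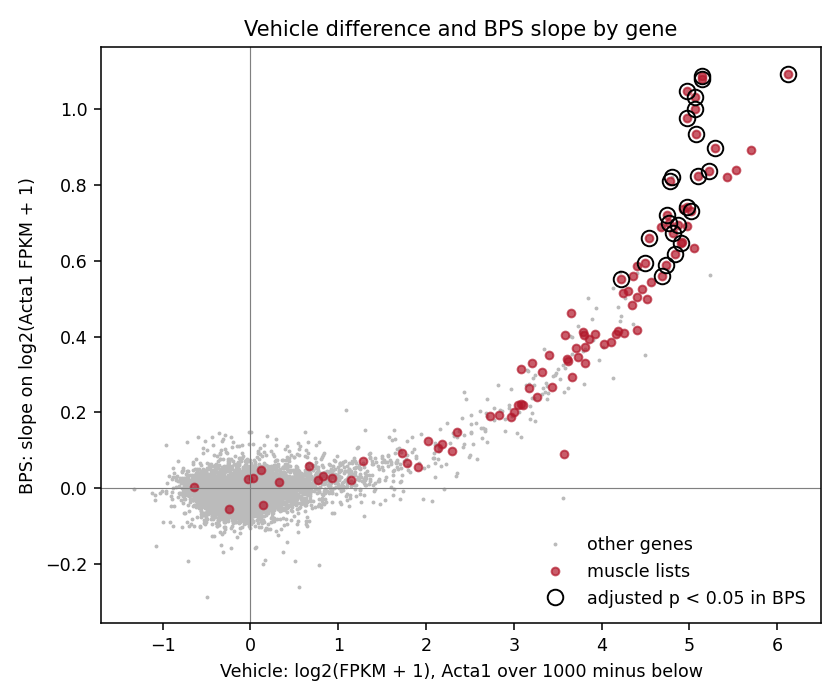
For each gene (points; red, muscle lists; rings, adjusted p under 0.05 in BPS), the vehicle difference in log2(FPKM + 1) on the x axis and the slope on log2(Acta1 FPKM + 1) over the 7 BPS libraries on the y axis. The ringed genes all lie at the upper right, with slopes up to 1.09, and the bulk of the other genes lies around 0 on both axes.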

How the data were processed

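The deposited table holds FPKM per gene and library, which the authors computed; per the submitters' processing notes, HISAT2 2.1.0, Bowtie2 and RSEM 1.3.1 and the build GRCm38.p6 were used, and poly(A)-selected total RNA was sequenced per the labels' protocols. Strandedness is not given in the sources used here. The authors' log2 ratios and p-values and q-values of BPS against vehicle, deposited in the same table, were not used. FPKM holds no read counts, so no count test was run. Values were put on the log2(FPKM + 1) scale, which understates differences of low genes. Of the 16774 genes, a gene entered a fit when 3 or more of its libraries reached 1 FPKM. limma 3.58.1 (trend, robust; R 4.3.3) gave the counts in the vehicle libraries and the slopes in the BPS libraries, both tested on simulated data, with p-values adjusted by Benjamini-Hochberg. Errors with ± are SE of that fit. Groups without overlap were counted directly. For rescaled values, each library was set to the same sum without the 126 muscle genes. Tables and plots used Python 3.11.15 with pandas 2.3.3, numpy 2.4.6 and matplotlib 3.10.9.

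The members and the 31 gene lists were chosen with earlier results of these data known, so a list's direction is not independent evidence; 562 of 570 list entries are in the table. Genes were named by a rule: Acta1, Ckm, 17 further fixed genes and the myosin heavy chains, the 12 largest differences without overlap in each direction (with a group mean of 5 FPKM or more on the higher side), the 4 tested members of largest statistic in each list, and the 10 smallest p-values in the BPS fit. Fabp3, Gpd1, Slc2a4, Cidec, Fabp4, Clock, S100b, Cdh19, Gfra3, Nefl, Nefm, Chrnb1, Chrnd, Chrng, Lrp4, Dag1, Dysf and Sgcd fall outside it and were chosen after their values were seen. RefSeq promoters came from the same build, and 16727 gene IDs matched RefSeq.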

Additional observations from a re-analysis of the deposited data

Results flagged for a closer look

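In 150 groups of 5 or 7 libraries (75 genes), 10 had a library whose gap to its nearest neighbour was a large share of the group's range by Dixon's criterion; chance flags about 1 in 20 groups (5%). The limits are 0.71 for the 5 vehicle libraries with less Acta1 and 0.568 for the 7 BPS libraries.

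BPS 4, the library with the least Y-linked transcript, was lowest in Ucp1 (82.3 FPKM, gap 0.614 of the range), Cidea (319.6 FPKM, 0.578), Fabp3 (109.2 FPKM, 0.725) and Slc2a4 (142 FPKM, 0.577), and it was highest in Myh6 (0.93 FPKM, 0.774). The part of the Y-linked split in these values was not tested. BPS 3 was lowest in the adrenergic receptor gene Adrb3 (45.4 FPKM, 0.659). BPS 1, which had the most Acta1 of the BPS libraries, was highest in Ankrd1 (0.78 FPKM, 0.713).

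Among the vehicle libraries below 1000 FPKM of Acta1, vehicle 4 was lowest in Blvrb (105 FPKM, 0.763), yet above all 3 libraries over the limit. Vehicle 7 was lowest in Pi16 (2.21 FPKM, 0.731). Vehicle 1, which had the most Acta1 of these 5, was highest in Myh6 (0.08 FPKM, 0.743), a level close to 0.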

How the results depend on the processing

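No gene that passed its test with the main settings reversed its direction under any alternative run. In BPS 1, 2 and 3 alone the slopes of Acaa2 and Suclg1, 0.0068 and 0.014 over the 7 libraries, passed with the opposite sign at -0.103 and -0.135. Values past no threshold changed sign in 223 of 2587 BPS slopes and 10 of 2826 vehicle differences recomputed under alternatives. Medians of lists near 0 changed sign: smooth muscle from 0.19 to -0.095 without vehicle 7, white adipocyte from -0.16 to 0.10 without vehicle 2 or 4, lipogenesis from -0.32 to 0.052 without vehicle 2, stress from -0.16 to 0.017 rescaled and 0.080 without vehicle 1, and ribosomal proteins from 0.00 to -0.066, -0.050 and -0.046 without vehicle 2, 5 or 7. With pseudocounts of 0.1 and 5 the medians of lists of low genes moved: 3.34 and 0.68 for the neuromuscular junction, 2.30 and 0.93 for the sarcolemma, 4.33 and 1.38 for myogenic regulators and 1.32 and 0.51 for nerve. With a filter of 5 FPKM the first pair of these were 0.83 and 1.14. The limma counts in the vehicle libraries moved most: 747 higher genes became 1153 rescaled, 472 with a filter of 5 FPKM and 1499 with a slope on Acta1 over the 8 libraries, and 248 lower genes became 489 with quantile normalization, 47 rescaled and 1157 with that slope. Leaving out each vehicle library gave 0 to 925 higher and 0 to 873 lower genes, with 0 in both directions without vehicle 2 or vehicle 6. Without vehicle 3 the counts were 439 and 43, and without vehicle 5 they were 454 and 50; lower genes numbered 163 without vehicle 1, 152 without vehicle 7 and 873 without vehicle 8. Genes without overlap numbered 2204 higher and 191 lower rescaled and 1673 lower with quantile normalization, and 1186 to 1884 higher and 1103 to 2896 lower with a library left out; the counts were 1884 and 2896 without vehicle 8, and 1608 lower without vehicle 7. Fewer libraries overlap less by construction. The ratio of mean muscle shares, 7.26, was 13.5 without the 13 genes, 6.97 without Acta1 and 6.26 to 9.15 with a library left out. List medians then ran from 3.28 to 4.24 for muscle, -0.55 to -0.32 for thermogenesis, -0.78 to -0.37 for adipocyte lipid genes and -0.38 to -0.19 for the respiratory chain, whose median was -0.083 rescaled. Positive BPS slopes numbered 75 with a pseudocount of 0.1, 8 with a pseudocount of 5, 3 without the 2 farthest libraries and 229 in BPS 1, 2 and 3 alone, an alternative chosen after seeing the data, with 62 negative there; with a library left out there were 12 to 42 positive (16 without BPS 1, 12 without BPS 6, 42 without BPS 8) and 0 to 1 negative. The cause of these shifts was not tested. No paired analysis was possible because the vehicle groups share no replicate number. Read depth is unknown, which limits statements on genes near 0.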
